A study of Homo sapiens with 8 samples.

Results

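PADI2 and PADI4 are 2 of the 5 human peptidylarginine deiminase genes, and were taken by symbol from the 37526 gene names that all 8 RNA-seq libraries of the series share. They were chosen by their measured levels in these same libraries, in all 4 groups and their comparisons, so the values of both genes are given below as a description, without a test. The study measured RNA in NB4 cells, a cell line from acute promyelocytic leukemia (APL) that carries the PML/RARα fusion and matures toward granulocytes under all-trans retinoic acid (ATRA). The question was how the loss of KDM3B, a demethylase of lysine 9 on histone H3, alters gene expression in these cells with and without ATRA.

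The 8 libraries fell into 4 groups of 2 and all came from NB4 cells stably transduced with a pLVX-shRNA2-puro lentivirus. The scramble cells (shNC), described as empty vector in the sample labels and as scrambled shRNA in the methods, and the shKDM3B cells, with an shRNA against KDM3B, were undifferentiated. The scramble+ATRA and shKDM3B+ATRA cells had received ATRA, for which the labels give 1 µM and a time of 24 or 48 h without saying which applies to which library. Which shRNA against KDM3B was used for these libraries is not stated in the sources used here. The methods speak of 2 replicates of the experiment, but neither they nor the labels say that the 2 libraries of a group came from separate cultures, so errors and p-values cover the spread between libraries only, which may be technical.

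Peptidylarginine deiminases are calcium-dependent enzymes that convert arginine in proteins to citrulline, which removes the positive charge of the side chain. PADI4 enters the nucleus and citrullinates histones, a step in the release of neutrophil extracellular traps (NETs), and it is a typical enzyme of mature granulocytes. PADI2 is the most widely expressed of the family, is mainly cytoplasmic and acts on vimentin, actin and histones among others. PADI1, PADI3 and PADI6 belong to the epidermis, the hair follicle and the oocyte.

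The 5 genes lie side by side on chromosome 1 (hg38, GENCODE v44). PADI2 (ENSG00000117115) occupies chr1:17066761-17119451 on the minus strand and PADI4 (ENSG00000159339) chr1:17308195-17364004 on the plus strand, each with 16 exons in its canonical transcript, with the start of PADI2 at -188.7 kb from that of PADI4. PADI1 and PADI3 lie between them and PADI6 beyond PADI4. The annotated exons cover 6000 bases in PADI2 and 2971 bases in PADI4, and no exon base of either is overlapped by an exon of a gene on the other strand.

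The promoters are shown because both genes were far higher with ATRA and yet have little in common in the 250 bases before their starts (RefSeq, GRCh38.p14, 5′ to 3′ on the strand of the gene). Capitals mark every match to the motifs searched on both strands.

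PADI2, chr1:17119452-17119701, minus strand: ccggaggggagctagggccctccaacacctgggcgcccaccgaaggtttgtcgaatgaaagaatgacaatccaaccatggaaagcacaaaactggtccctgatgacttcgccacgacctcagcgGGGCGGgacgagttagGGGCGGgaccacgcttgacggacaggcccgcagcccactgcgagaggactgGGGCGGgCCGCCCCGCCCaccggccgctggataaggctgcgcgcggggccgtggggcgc

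PADI4, chr1:17307947-17308196, plus strand: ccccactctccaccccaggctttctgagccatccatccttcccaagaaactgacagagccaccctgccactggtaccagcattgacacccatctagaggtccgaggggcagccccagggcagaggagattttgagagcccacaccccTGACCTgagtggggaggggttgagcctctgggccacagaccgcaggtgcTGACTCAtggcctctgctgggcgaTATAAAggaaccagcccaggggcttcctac

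The PADI2 promoter was 68.0% G and C with 24 CpG dinucleotides, and held 5 matches to the GC box GGGCGG, a site of Sp1-type factors, of which 2 overlap by 1 base. The PADI4 promoter was 61.2% G and C with only 3 CpG dinucleotides, against a median of 58.0% over 35116 promoters. It held a TATA box (TATAAA) 30 to 25 bases before the start, an AP-1 motif (TGANTCA) 54 to 48 bases before it, and the hexamer AGGTCA, the core of retinoic acid receptor elements, on the reverse strand 103 to 98 bases before it. Among all promoters of this length, 42.6% held the GC box, 10.7% the TATA box, 6.57% the AP-1 motif and 12.1% the hexamer. The variant hexamer AGTTCA (8.80% of promoters), the PU.1 motif GAGGAAGT (2.17%) and its core GAGGAA (23.6%), which lies within it, the C/EBP motif TTGCNNAA (9.05%), CCAAT (32.0%) and the E-box CACGTG (6.35%) were searched for and matched in neither window. These are matches of letters, and whether any factor binds there was not measured in these data.

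Gene counts summed to 19444480 to 33017787 in the untreated and 9708739 to 16882512 in the ATRA-treated libraries. Pairs that fell outside annotated genes made up 8.49 to 9.62% in the untreated libraries and 9.36% in scramble+ATRA replicate 1, but 50.0% in scramble+ATRA replicate 2 and 51.4 and 51.0% in the shKDM3B+ATRA libraries. Scramble+ATRA replicate 1 therefore stood apart from the 3 other treated libraries, and values without it are given below. The untreated and treated libraries were also counted with different sets of gene names, 56470 and 56609 per library, so that the effect of ATRA and that of the gene models cannot be told apart in full. The targeted gene KDM3B had 187 and 188 CPM (counts scaled to a common library size with TMM factors) in scramble, 76.3 and 86.2 in shKDM3B, 196 and 121 in scramble+ATRA, and 52.5 and 57.4 in shKDM3B+ATRA. Its log2 fold change in the knockdown was -1.21 without ATRA (SE 0.15, adjusted p = 0.068) and -1.53 with it (SE 0.29, adjusted p = 0.502, edgeR quasi-likelihood test with Benjamini-Hochberg adjustment). The myeloid markers CD33 and MPO were read in all 8 libraries, ITGAM (CD11b) was between 9.86 and 26.1 CPM without and between 104 and 217 CPM with ATRA, and ELANE, neutrophil elastase, had at most 7 counts in any library.

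PADI2 was scarce in untreated cells and abundant after ATRA. It measured 6.98 and 5.79 CPM in scramble (139 and 138 counts), 3.44 and 4.69 CPM in shKDM3B (67 and 153 counts), 252 and 219 CPM in scramble+ATRA (4115 and 2370 counts), and 115 and 101 CPM in shKDM3B+ATRA (1089 and 1009 counts). The order of the groups from high to low was scramble+ATRA, shKDM3B+ATRA, scramble and shKDM3B. No 2 groups overlapped, but the gene was chosen by these values and the share of all genes that do so was not counted. The nearest libraries of neighbouring groups were scramble replicate 2 and shKDM3B replicate 2, whose exact Poisson intervals of 4.86 to 6.84 and 3.98 to 5.50 CPM overlapped, so the gap between the untreated groups was within counting error for these libraries. Without molecular identifiers, these 95% intervals describe counting error and no other source of error.

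PADI4 followed the same order, with a wider spread in untreated cells. It measured 7.93 and 4.15 CPM in scramble (158 and 99 counts), 2.16 and 3.804 CPM in shKDM3B (42 and 124 counts), 395 and 302 CPM in scramble+ATRA (6441 and 3277 counts), and 168 and 151 CPM in shKDM3B+ATRA (1594 and 1498 counts). The groups again did not overlap, with the same limits. The lower scramble library and the higher shKDM3B library lay almost together, with Poisson intervals of 3.38 to 5.06 and 3.16 to 4.54 CPM. With ATRA the lowest scramble library was still far above the highest shKDM3B library, at 292 to 313 against 160 to 176 CPM. In bulk RNA, fewer cells that express a gene and less of its RNA per cell cannot be told apart.

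Per kilobase of exon, PADI4 was the higher of the pair in every library. In untreated cells PADI2 stood at 0.574 to 1.16 and PADI4 at 0.726 to 2.67 CPM per kb, and with ATRA at 16.9 to 42.0 and 50.7 to 133 CPM per kb. The ratio of PADI4 to PADI2 per kb was 2.30 and 1.45 in scramble, 1.27 and 1.64 in shKDM3B, 3.16 and 2.79 in scramble+ATRA, and 2.956 and 2.998 in shKDM3B+ATRA. All 4 treated libraries thus lay above all 4 untreated ones, while the ratios of scramble+ATRA and shKDM3B+ATRA overlapped. The exon lengths come from GENCODE v44 and not from the gene models used for counting, which shifts all ratios of one set of gene names alike.

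The other members of the family were at the limit of detection. PADI1 had 0 counts in the 4 untreated libraries, 8 and 2 in scramble+ATRA and 1 and 0 in shKDM3B+ATRA. PADI3 had 1 to 3 counts without ATRA and 1 to 7 with it, and PADI6 had 1 count in scramble+ATRA replicate 2 and 0 elsewhere. By the rule that a count of 0 allows up to 3 counts, which differs from the Poisson intervals above and gives a lower limit than they do, the limit was 0.0920 to 0.154 CPM in the untreated and 0.184 to 0.316 CPM in the treated libraries. None of these 3 genes passed the filter on low counts, so no fold change is given for them.

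To follow the induction by ATRA, scramble+ATRA was compared with scramble. PADI2 was higher by 5.24 (log2 fold change, SE 0.25), or 37.7-fold, and PADI4 by 5.89 (SE 0.39), or 59.2-fold. Mean levels were 6.38 ± 0.84 and 235 ± 23.8 CPM for PADI2 (SD, n = 2) and 6.04 ± 2.67 and 348 ± 65.5 CPM for PADI4. Among 12429 genes tested, PADI4 ranked 131st and PADI2 169th by log2 fold change, in a comparison where 15% of genes were called higher, 10.8% lower and 25.9% in either direction, with 12.9% still called at an adjusted p under 0.05. A gene was called at an unadjusted p under 0.05 and a fold change of at least 1.5, the rule of the study. Without scramble+ATRA replicate 2, which leaves only libraries with few pairs outside genes, the values were 5.31 for PADI2 and 6.05 for PADI4. The 2 scramble libraries were uneven for PADI4, and its value ran from 5.48 without scramble replicate 2 to 6.39 without scramble replicate 1.

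In the knockdown, shKDM3B+ATRA was compared with shKDM3B. PADI2 was higher by 4.76 (SE 0.19), or 27.1-fold, and PADI4 by 5.74 (SE 0.24), or 53.3-fold. PADI2 went from 4.07 ± 0.885 to 108 ± 9.41 CPM and PADI4 from 2.98 ± 1.16 to 159 ± 12.3 CPM (SD, n = 2). They ranked 744th and 628th among 12756 genes tested, where 24% of genes were called higher, 18.3% lower and 42.2% in either direction, or 40.2% at an adjusted p. Both treated libraries of this comparison had over 51% of pairs outside genes and both untreated ones under 10%, so treatment and that difference between libraries cannot be told apart here.

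The comparison of shKDM3B with scramble in untreated cells addressed whether KDM3B alters the basal level. PADI2 was lower by 0.64 on the log2 scale (SE 0.29), or 1.56-fold, and PADI4 by 1.00 (SE 0.41), or 1.99-fold. The group means of the knockdown were 63.7% of scramble for PADI2 and 49.3% for PADI4. In this comparison 3.53% of 13855 genes were called lower and 3.48% higher, and 0.0217% at an edgeR adjusted p under 0.05. Both values leaned on single libraries, since PADI2 was at -0.44 without shKDM3B replicate 1 and -0.90 without shKDM3B replicate 2, and PADI4 at -0.46 without scramble replicate 1 and -1.49 without shKDM3B replicate 2.

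With ATRA, both genes were lower in the knockdown by nearly the same factor. The shKDM3B+ATRA libraries were lower than scramble+ATRA by 1.12 on the log2 scale for PADI2 (SE 0.15), or 2.17-fold, and by 1.13 for PADI4 (SE 0.19), or 2.18-fold. The means were 45.9% and 45.7% of scramble+ATRA, in a comparison where 4.37% of 14281 genes were called lower and 2.42% higher, and 0% at an edgeR adjusted p under 0.05, with 1383 genes at an unadjusted p under 0.05 and 357 called by DESeq2 at its adjusted p. Without scramble+ATRA replicate 1, so that all libraries had about 50% of pairs outside genes, the values were -1.005 for PADI2 and -0.91 for PADI4. Without scramble+ATRA replicate 2 they were -1.22 and -1.31, so the direction held on either side with a larger value when the library that stood apart was the only control.

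**Figure D1:**
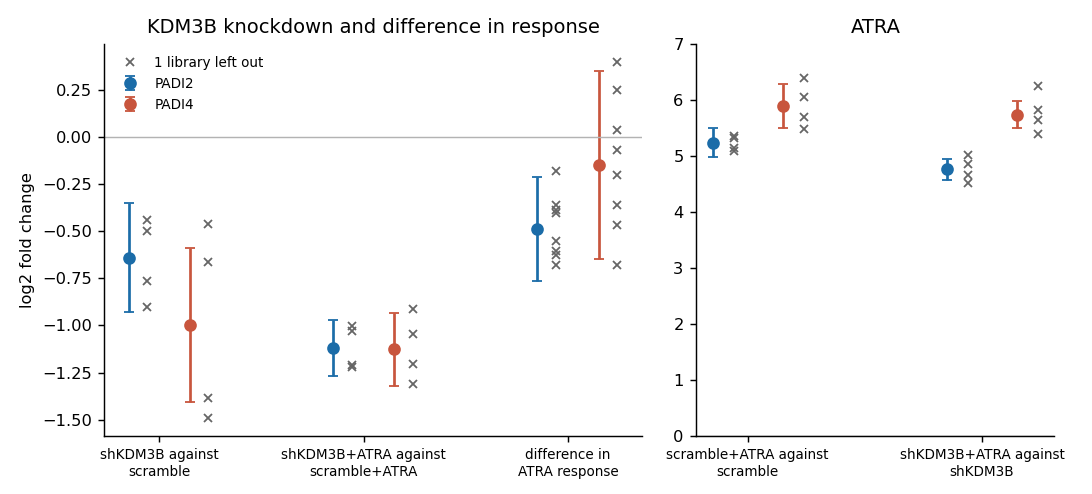
Log2 fold change of PADI2 and PADI4 in each comparison, the point being the fitted value and the bar its SE, and each cross the value of a fit that leaves out 1 library. The ATRA comparisons lie between 4.76 and 5.89 and the knockdown comparisons between -1.13 and -0.64, and the crosses of the PADI4 difference in response lie on both sides of 0.

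Measured as a gain in CPM, the response to ATRA was smaller in the knockdown for both genes. PADI2 gained 229 CPM in scramble and 104 CPM in shKDM3B, which is 45.4% of the control gain. PADI4 gained 342 and 156 CPM, or 45.6%. With such low untreated levels, these shares nearly restate the treated levels, which were 45.9% and 45.7% of scramble+ATRA. The lower starting level of the knockdown enters a comparison on the log2 scale. The difference in log2 response (shKDM3B minus scramble, all 8 libraries) was -0.49 for PADI2 (SE 0.28) and -0.15 for PADI4 (SE 0.50), and 2.72% of 13528 genes were called lower by this measure, 1.27% higher and 3.99% in either direction. At an adjusted p the share was 0% by edgeR, with 607 genes at an unadjusted p under 0.05 and 25 called by DESeq2 at its adjusted p. The PADI2 value ran from -0.18 without shKDM3B replicate 2 to -0.68 without shKDM3B replicate 1. For PADI4 the sign was not stable, since the value was 0.25 without scramble replicate 2, 0.40 without shKDM3B replicate 2 and 0.04 without scramble+ATRA replicate 1. The 2 knockdown comparisons and the 2 ATRA comparisons share libraries with each other and are not independent of this difference.

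The genes around the PADI cluster were examined to see whether the region moved as a whole. Within 500 kb of the cluster 20 other named genes were found, of which 10 passed the filter on low counts. In scramble cells, where 25.9% of all genes were called, their log2 fold change with ATRA ran from -1.28 to 0.93, against 5.24 and 5.89 for PADI2 and PADI4, where SDHB, a subunit of succinate dehydrogenase, rose by 0.93 (adjusted p = 0.0242) and MST1P2, a pseudogene whose reads may be shared with MST1 and its copies, was called lower at -1.28 (adjusted p = 0.0715, edgeR quasi-likelihood test with Benjamini-Hochberg adjustment). In shKDM3B cells 1 was called higher and 2 lower, within -2.36 to 0.77, where 42.2% of all genes were called. Between shKDM3B+ATRA and scramble+ATRA they ran from -0.79 to 1.65, and 0 of the 10 were called by edgeR, with 0 at an unadjusted p under 0.05, where 6.79% of all genes were called. In untreated cells 1 was called higher in the knockdown, ACTL8 at 1.54 (edgeR adjusted p = 0.298), against 7.01% of all genes. RCC2, 131.5 kb from the PADI4 start, changed by -0.25 in scramble and 0.02 in shKDM3B, neither called.

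**Figure D2:**
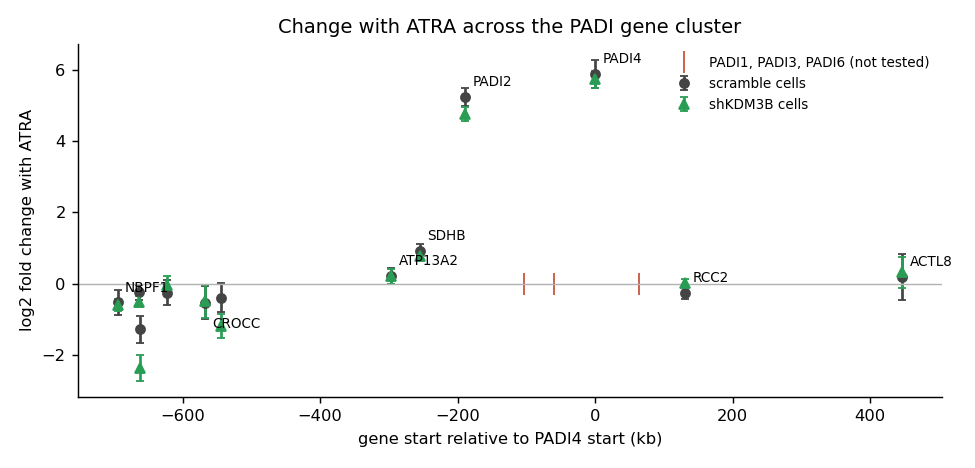
Log2 fold change with ATRA (vertical axis) against the distance of each gene's start from the PADI4 start in kb (horizontal axis), in scramble and in shKDM3B cells, for the PADI genes and their neighbours that were tested. PADI2 and PADI4 lie at 4.76 to 5.89 and all tested neighbours at or below 0.93.

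Genes whose profile was most like that of each member were then ranked by the root mean square distance between log2(CPM + 0.5) values, centred on the mean of the gene over 8 libraries, among 9789 genes with a mean of at least 5 CPM. Nearest to PADI2 were DAPK2, a calcium/calmodulin-regulated kinase, at 0.272, ID1, an inhibitor of helix-loop-helix factors, at 0.299, VSIR, the immune checkpoint receptor VISTA, at 0.312, GFI1B, a transcriptional repressor, at 0.313, and GNG2, a G protein subunit, at 0.348. DAPK2 measured 0.602 and 0.839 CPM in scramble, 0.360 and 0.307 in shKDM3B, 63.1 and 45.9 in scramble+ATRA, and 21.9 and 25.5 in shKDM3B+ATRA. Genes this low without ATRA, as also ID1, GFI1B, CDH23, KCNH4, ADGRG3 and BCL2A1, reach a mean of 5 CPM only through the treated libraries, so their step up is set by that filter and is no finding.

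Nearest to PADI4 were CDH23, a cadherin, at 0.185, KCNH4, a potassium channel, at 0.196, NCF1, the p47phox subunit of the phagocyte NADPH oxidase, at 0.249, ADGRG3, an adhesion receptor of granulocytes, at 0.338, and BCL2A1, an inhibitor of apoptosis, at 0.362. NCF1 measured 16.4 and 11.4 CPM in scramble, 4.68 and 7.64 in shKDM3B, 1132 and 747 in scramble+ATRA, and 359 and 465 in shKDM3B+ATRA, and its reads may be shared with near-identical copies of the gene. PADI4 was 16th nearest to PADI2 and PADI2 13th nearest to PADI4, at a distance of 0.463. The likeness rests on 8 libraries that differ mainly by ATRA, with values of a few counts for the lowest genes in untreated cells, and says nothing of shared function.

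The genes around citrullination were described with 5 lists of 108 genes in all, for NET formation, reported substrates, arginine methylation, calcium entry and release, and transcription factors, with 98 of them tested for ATRA in scramble. Of these, 25 were called higher and 21 lower (46.9%, against 25.9% of all genes), with a median log2 fold change of 0.12 against 0.02 over all genes. In shKDM3B 19 of 96 were called higher and 19 lower (39.6%, against 42.2% of all genes). The balance in scramble depended on the tool and the rule. It was 20 higher and 7 lower at an edgeR adjusted p under 0.05, and 21 and 16 by DESeq2 at its adjusted p. Under the unadjusted rule it was 19 and 7 without scramble replicate 2, and 16 and 10 without scramble replicate 1. PADI2 and PADI4 are not in the lists, and no list gene other than NCF1 had a log2 fold change above that of PADI2 there.

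In the NET list, where PADI4 acts, 11 of 23 tested genes were called higher and 3 lower with ATRA (60.9%, against 25.9% of all genes), and in shKDM3B 10 of 22 higher and 2 lower (54.5%, against 42.2%). In scramble NCF1, a subunit of the NADPH oxidase that feeds NET release, rose by 6.11 (SE 0.35, adjusted p = 0.000159), by the edgeR quasi-likelihood test with Benjamini-Hochberg adjustment. Granule proteins of the list went both ways. CTSG, cathepsin G, fell, with a log2 fold change of -5.04 (SE 0.33, adjusted p = 0.000257) and so did MPO, myeloperoxidase, at -2.81 (SE 0.21, adjusted p = 0.000415) in the same edgeR fit. CAMP, the precursor of the peptide LL-37, rose by 3.20 (SE 0.58, edgeR adjusted p = 0.0128) on 5, 4, 31 and 21 counts, while ELANE, AZU1 and LTF did not pass the filter on low counts. In shKDM3B+ATRA against scramble+ATRA, where PADI2 and PADI4 were at -1.12 and -1.13, 7 of 22 were called lower and 1 higher, against 6.79% of all genes called in either direction. NCF1 at -1.19 and CAMP at -2.02 on 31, 21, 4 and 5 counts, were among the lower ones and MPO at 1.99 was the higher one, each with an adjusted p of 0.502 by edgeR. NCF1 thus stood next to PADI2 and PADI4 in this comparison.

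Among 20 tested substrates of citrullination, 2 were called higher and 3 lower with ATRA in scramble, a share of 25% that is near the 25.9% of all genes. VIM, vimentin, a substrate of PADI2, fell by 5.16 on the log2 scale (SE 0.32, edgeR adjusted p = 0.000205), against a log2 fold change of 5.24 for PADI2, while CXCL8, a chemokine, rose by 3.76 (SE 0.47, edgeR adjusted p = 0.00276) and PKM, a glycolytic enzyme, by 1.48. Of 12 arginine methyltransferases and related genes, which act on the same residue, 4 were called lower and none higher in scramble. PRMT1, CARM1 and PRMT5 were among them, at -0.71, -0.73 and -0.70. By edgeR, 0 of the 4 passed the adjusted threshold in scramble, while all 4 called lower in shKDM3B did. The share called was 33.3% in both, against 25.9% of all genes in scramble and 42.2% in shKDM3B.

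For calcium, which PADI enzymes need, 9 of 28 genes were called higher and 7 lower with ATRA in scramble, against 15% and 10.8% of all genes. Of the 16, 6 passed the adjusted threshold by edgeR. In shKDM3B 5 of 27 were called higher and 4 lower (33.3%, against 42.2% of all genes). The highest in scramble was PLCB2, a phospholipase that releases calcium from stores, at 3.81 (SE 0.37, edgeR adjusted p = 0.00112). Of 18 transcription factors in scramble, CEBPB at 3.20, CEBPE at 2.64 and SPI1 (PU.1) at 1.39 rose, while GATA2 at -1.83, RXRA, a partner of the retinoic acid receptor, at -1.44, and JUN, an AP-1 subunit, at -1.29 were among 5 called lower (44.4% of the list called, against 25.9% of all genes, and in shKDM3B 44.4% against 42.2%). In shKDM3B+ATRA against scramble+ATRA, JUN at -1.89, CEBPB at -1.73 and RXRA at -0.73 were called lower and none higher (16.7% of the 18, against 6.79% of all genes), again with an edgeR adjusted p of 0.502. The JUN value rests on 96 counts in all in scramble+ATRA and 18 in shKDM3B+ATRA. Like PADI2 and PADI4, CEBPB was lower in both shKDM3B+ATRA libraries, at 44.1 and 46.5 CPM, than in the scramble+ATRA libraries, at 183 and 118 CPM.

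By edgeR, the calls among list genes in the knockdown comparisons did not survive adjustment over all genes, while some were called by DESeq2 at its adjusted p. In untreated cells 7 of 99 list genes were called higher and 7 lower (14.1%, against 7.01% of all genes), and with ATRA 2 of 95 higher and 13 lower (15.8%, against 6.79%). Both balances moved with single libraries. In untreated cells 13 were higher and 7 lower without scramble replicate 2. With ATRA there were 9 higher and 13 lower without scramble+ATRA replicate 1, 6 and 26 without scramble+ATRA replicate 2, 2 and 2 without shKDM3B+ATRA replicate 1, and 1 and 3 without shKDM3B+ATRA replicate 2. By edgeR with Benjamini-Hochberg adjustment 0 of them passed in either comparison, with 18 and 19 at an unadjusted p under 0.05, whereas DESeq2 with its adjustment called 5 higher and 5 lower in untreated cells, and 2 higher and 8 lower with ATRA.

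Markers of other cell types were summed for comparison. Over 10 such markers the summed level was 21.2 to 29.5 CPM without and 34.7 to 44.8 CPM with ATRA, of which the epithelial gene EPCAM gave 13.1 to 18.9 CPM, so that the sum was above both genes in untreated cells and below them with ATRA. In each library 4 to 6 of the 10 had at most 3 counts, with the red cell gene HBB at 0. The B cell gene CD79A was at 3.21 and 3.06 CPM in scramble, 1.28 and 2.33 in shKDM3B, 16.4 and 16.1 in scramble+ATRA, and 6.95 and 8.24 in shKDM3B+ATRA. It thus moved in the same directions as PADI2 and PADI4 in the ATRA and knockdown comparisons, at -1.09 between shKDM3B+ATRA and scramble+ATRA (edgeR adjusted p = 0.502), and its part in the PADI values was not tested.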

How the data were processed

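RNA-seq was done on 8 libraries of NB4 cells in 4 groups of 2, taken from the sample labels. According to the methods, libraries were made with a TruSeq kit and sequenced as 150-base pairs, and adapters were removed with Trim Galore, HISAT2 placed the reads on hg38, and the authors took counts per gene from HTSeq. The deposited files hold these whole-number counts without normalization, with 5 summary lines that were kept out of library sizes and tests. Tool versions and a strand setting are not given in the sources used here. The methods name a RefSeq annotation, and the untreated and treated files list different names, so comparisons across treatment used the 37526 names in common.

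Levels are TMM-normalized CPM over the 8 libraries. Each comparison was fitted on all genes with edgeR 4.0.16 in R 4.3.3 (filterByExpr, TMM, quasi-likelihood F test), with SE as the size of the log2 fold change over the square root of F, and Benjamini-Hochberg adjustment over all genes of a fit. The difference in response was an interaction over 8 libraries. DESeq2 1.42.0 was an alternative, as were other scalings and filters, a replicate block, 1 fit of all libraries, adjusted p, and leaving out each library. The fits were tested on simulated data with 200 changed genes. Positions and exon lengths came from GENCODE v44, promoters from RefSeq by symbol, and both members matched in each.

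The members and lists were chosen with earlier results of these data known. Genes named were the PADI family, KDM3B, the marker genes, genes within 500 kb of the PADI cluster, the 5 nearest genes by profile, and from each list and comparison up to 3 called genes per direction with the largest change. Promoter coordinates are those of the RefSeq table, whose sequence was compared with hg38 and was identical. Some genes covered by this rule are not reported here.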

Additional observations from a re-analysis of the deposited data

Results flagged for a closer look

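PADI2 and PADI4 were not tested for a difference in their response to ATRA between shKDM3B and scramble cells, since their values chose them. Among 100 list genes tested for it, 9 were called at an unadjusted p under 0.05 and a difference of at least 1.5-fold (9%, against 3.99% of all 13528 genes), and 0 passed Benjamini-Hochberg adjustment over all genes in edgeR, where the lowest adjusted p of the 9 was 0.992. When 1 library was left out, the list genes called ran from 1 to 5 higher and from 4 (without scramble replicate 1) to 17 (without scramble+ATRA replicate 2) lower. The difference is the log2 response in shKDM3B minus that in scramble. In the NET list it was 1.10 for MPO, 0.90 for TLR4 and -1.15 for CTSG, on 92 CTSG counts in all in scramble+ATRA and 36 in shKDM3B+ATRA. MPO and CTSG fell with ATRA in scramble and in shKDM3B cells. Among substrates the difference was -2.90 for CXCL8, a chemokine that PADI2 and PADI4 can citrullinate, and -0.65 for RPS2, a ribosomal protein. CXCL8 ran from 77.8 to 192 CPM in scramble+ATRA and from 21.7 to 82.2 CPM in shKDM3B+ATRA, which overlap. Its untreated mean was 10.3 CPM in scramble and 29.5 CPM in shKDM3B. For TRPM2, a calcium channel, the difference was -0.82. Among transcription factors it was -2.02 for JUN, -1.20 for CEBPB and -0.99 for RXRA. JUN had 96 counts in all in scramble+ATRA and 18 in shKDM3B+ATRA.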

How the results depend on the processing

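The log2 fold changes of PADI2 and PADI4 moved by less than the spread between replicates under other scalings and filters, DESeq2 and a single fit of all libraries, and kept their sign there. Of the values recomputed, 259 stayed within that spread or within 1.5 times the main count, 43 moved and 3 changed sign. The 3 were the PADI4 difference in response, which ran from -0.68 to 0.40 over fits without 1 library, at 0.25 without scramble replicate 2, 0.40 without shKDM3B replicate 2 and 0.038 without scramble+ATRA replicate 1.

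At an adjusted p under 0.05, edgeR called 3 genes for shKDM3B against scramble, 0 for shKDM3B+ATRA against scramble+ATRA and 0 for the difference in response, with 0 list genes higher and 0 lower in all 3, against 1411, 1383 and 607 genes at an unadjusted p under 0.05. DESeq2 called 278, 357 and 25 genes at its adjusted p. For ATRA in scramble edgeR called 1604 genes, with 20 list genes higher and 7 lower, and DESeq2 2167 genes, with 21 and 16. Without a low-count filter the difference gave 941 genes and 4 list genes higher. In a fit of all 8 libraries 21 list genes were lower in shKDM3B+ATRA than in scramble+ATRA.

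Same-numbered libraries share only a number. The correlation of their deviations was 0.415 for the untreated groups, 0.0358 for the treated ones, -0.0903 for ATRA in scramble and 0.21 for ATRA in shKDM3B. With the replicate number as a block, shKDM3B+ATRA against scramble+ATRA gave 525 genes and 6 list genes lower, and no other count of calls moved by over 1.5 times. The blocked log2 fold changes were -0.64, -1.12, 5.24, 4.76 and -0.50 for PADI2 and -0.95, -1.11, 5.94, 5.75 and -0.19 for PADI4, for the knockdown without and with ATRA, ATRA in scramble and in shKDM3B, and the difference.

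The number of genes called, when 1 library was left out, ran from 943 to 1650 for the knockdown without ATRA (the latter without scramble replicate 2), from 134 (without shKDM3B+ATRA replicate 1) to 5360 (without scramble+ATRA replicate 2) for the knockdown with ATRA, from 1462 (without scramble replicate 2) to 5142 (without scramble+ATRA replicate 1) for ATRA in scramble, and from 285 (without shKDM3B+ATRA replicate 1) to 2432 (without scramble+ATRA replicate 2) for the difference. List genes called higher ran from 6 to 13, 1 to 9 (without scramble+ATRA replicate 1), 16 to 26 and 1 to 5, in that order, and those called lower from 2 to 26 for the knockdown with ATRA, 7 to 22 for ATRA in scramble and 4 to 17 for the difference. The cause was not tested. A lone library left in a group was assumed to vary like the others. With 2 libraries a group and 42 to 158 counts in untreated cells, the basal values of both genes are the least precise.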
